A study of Arabidopsis thaliana with 6 samples.

Results

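The genes described here encode proteins of the cytosolic ribosome of Arabidopsis thaliana, from S2 to S15 of the small subunit and from L3 to L10 of the large subunit. The list holds 56 loci, 35 for the small and 21 for the large subunit, in 24 protein families. A probe set annotated to a single gene was found for 33 of the 56 loci, 24 of the small and 9 of the large subunit, out of 13333 genes named in this way in the whole table. Each of the 33 had 1 such probe set, and all 33 were bright enough to be tested. The other 23 loci, which include all listed genes of S5, S6, L3, L5, L8 and L10, were not analysed here. The gene table gives these loci no symbol, so each goes by its locus identifier and by its protein family in the usual Arabidopsis naming.

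Leaves of plants that express AmGSTF1, a glutathione transferase of a grass weed, were compared with leaves of plants without a transgene, both in the ecotype Col0. Each group had 3 arrays, which the series calls biological replicates. All leaves, AmGSTF1 and Col0 alike, came from plants grown from chilled seed (72 hours at 4 °C) under 16-hour days at 20 °C. They had floated for 4 hours on a solution of 0.1% Tween 20 and 0.1% acetone in water, with 10 leaves per replicate, and the labels name no herbicide. The labels give neither the promoter of the transgene nor the number of independent lines nor the age of the plants.

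The cytosolic ribosome translates the messages of nuclear genes. Its small subunit reads the mRNA and its large subunit joins amino acids, and each protein sits in the particle as a single copy or a few. In Arabidopsis nearly every ribosomal protein is encoded by a small family of paralogues that make almost the same protein, so that a plant can draw its supply from several genes. In leaves these genes are among the strongly transcribed ones, they tend to be expressed together, and their level is known to follow growth and energy supply.

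Across the whole table, the trimmed mean signal was 496 on each array and the 13647 probe sets kept for testing correlated at r = 0.963 to 0.977 within groups and at 0.932 to 0.965 between them (taken over probe sets, not over replicates). Leaf identity was read from RCA, the Rubisco activase, with signals of 15370 to 22829, and from the antenna protein gene LHCB4.2, with 7542 to 13241. The root gene PYK10 stood at 38.5 to 173 and the root hair gene EXPA7 at 4.86 to 29.4, while the signal below which 40% of all probe sets lay was 68.7 to 84.5. The 9 markers of dividing cells, which are rich in ribosomes, had 0 measured members.

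Most cytosolic ribosomal protein genes had slightly lower values in AmGSTF1 leaves, and few of these differences passed the test. Of the 33 measured genes, 2 fell (limma, adjusted p under 0.05 over all 13647 probe sets tested) and 0 rose. Of all probe sets tested, 2.90% were called lower, 2.14% higher and 5.04% in either direction. The 2 calls are 6.06% of the members, against the 2.90% called lower, and with so few genes called the gap between these shares is not read as a result. Within the members' range of brightness, 4.90% of 6140 probe sets were called lower, and at or above their median brightness 4.36% of 344. An unadjusted p under 0.05 was reached by 6 members, all with lower values, where 10.7% of all probe sets had such a p and a lower value and 12.6% such a p and a higher one. The value was lower in AmGSTF1 for 28 of the 33 and higher for 5, against 44.1% of all probe sets with a lower value. The median log2 difference was -0.17 over the members and 0.05 over all probe sets tested. In bulk leaf samples, fewer cells of a type and less RNA per cell cannot be told apart.

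The median of the members depended on how the arrays were scaled. With quantile normalization the median of the members was -0.08 and with cyclic loess -0.09, against 0.01 and 0.02 for all probe sets. With median centring it was -0.26, against -0.04. Median centring moves all values of an array alike, so the members' median minus that of all probe sets stayed at -0.21. That difference was -0.09 with quantile normalization and -0.11 with cyclic loess. Lower values were found in 26 of the 33 genes with quantile normalization, in 27 with loess and in 32 with median centring. The numbers of probe sets called higher and lower over the whole table, 292 and 396, were 222 and 599 with median centring. The members are bright probe sets, with mean Col0 signals from 763 to 14426. Over the 344 probe sets at or above the members' median brightness, the median difference was -0.05, and over the 6140 within their range of brightness it was 0.01. Lower values made up 60.2% of the first of these sets and 47.9% of the second, a larger share than in the whole table. Both sets include ribosomal protein genes, members among them, so the lean of other bright probe sets cannot be read from the set of 344. In the set of 6140, the 33 members and the 84 other cytosolic ribosomal protein genes tested can be only a small part.

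**Figure D1:**
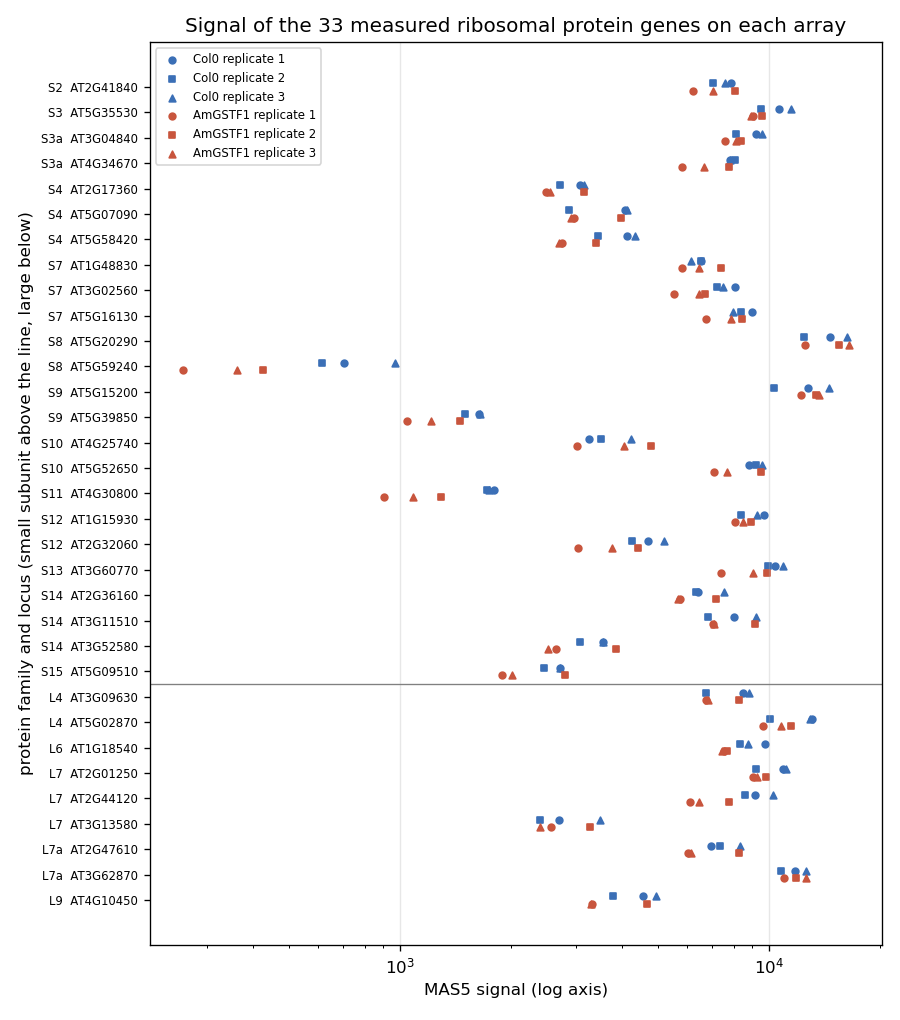
MAS5 signal (log axis) of each of the 33 measured genes on the 6 arrays, ordered by protein family, with Col0 arrays in blue and AmGSTF1 arrays in red. The S8 gene AT5G59240 and the S11 gene AT4G30800 have separate groups, while the groups of 24 genes overlap.

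The arrays of each group were not alike for these genes. Relative to each gene's Col0 mean, the median over the 33 members was 0.04, -0.12 and 0.11 on Col0 replicates 1, 2 and 3 and -0.30, 0.01 and -0.23 on AmGSTF1 replicates 1, 2 and 3. AmGSTF1 replicate 2 therefore lay within the Col0 range, and the other AmGSTF1 arrays lay below it. AmGSTF1 replicate 2 was the highest of its group for 30 of the 33 genes, and Col0 replicate 2 was the lowest of its group for 27. Signals under the lowest Col0 array were found for 26 genes on AmGSTF1 replicate 1, for 9 on replicate 2 and for 20 on replicate 3. The groups did not overlap for 9 genes, all lower in AmGSTF1 (27.3%, where 13.1% of all probe sets tested were separate and lower and 14.5% separate and higher). Separate and lower groups were found for 17.1% of the probe sets within the members' range of brightness and for 19.2% of those at or above their median. Over all probe sets tested the same median was between -0.00 and 0.07 on every array. With the trimmed mean alike on all arrays, that median says little about whether other sets of genes spread between replicates. Without AmGSTF1 replicate 2 the median of the members was -0.24 and 3 were called lower. Without AmGSTF1 replicate 1 it was -0.10, and 0 were called. With both replicates 2 left out, a choice made after seeing that they stood apart, all 33 values were lower, the median was -0.31 and 10 members were called lower. That fit holds 2 arrays a group, picked for how these genes looked on them, so its calls are no independent support.

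**Figure D2:**
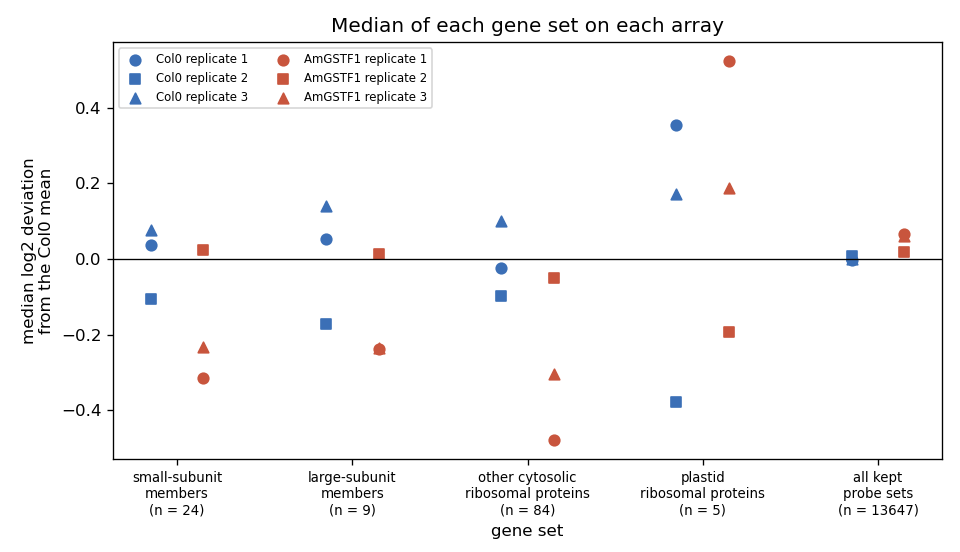
Median log2 deviation from the Col0 mean on each array, for the small- and large-subunit members, the other cytosolic ribosomal protein genes, the plastid ribosomal protein genes and all kept probe sets. For both subunits AmGSTF1 replicates 1 and 3 lie lowest and AmGSTF1 replicate 2 lies among the Col0 arrays, while all kept probe sets stay near 0.

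The S8 gene AT5G59240 showed the largest difference of the 33. S8 is a small-subunit protein of eukaryotes and archaea with no bacterial counterpart. It gave signals of 703, 614 and 970 on the Col0 arrays and 258, 424 and 361 on the AmGSTF1 arrays. All 3 AmGSTF1 arrays lay below all 3 Col0 arrays. The signal fell from 763 ± 185 to 348 ± 83.9 (SD, n = 3), and the log2 difference was -1.10 (SE 0.22, 95% interval -1.59 to -0.60, limma adjusted p = 0.0270), which is 46.7% of the Col0 level on the log2(signal + 16) scale. AT5G59240 was also the dimmest of the 33 probe sets.

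The S11 gene AT4G30800 was the other call. S11 is a small-subunit protein with a bacterial counterpart, and AT4G30800 was the only one of the 3 listed S11 genes with a probe set named here. It gave signals of 1790, 1715 and 1736 on the Col0 arrays and 906, 1293 and 1084 on the AmGSTF1 arrays. The Col0 arrays lay close together and every AmGSTF1 array lay under them. The log2 difference was -0.68 (SE 0.15, 95% interval -1.03 to -0.34, limma adjusted p = 0.0375), or 62.3% of the Col0 level.

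Both calls depended on which arrays were included. When Col0 replicate 1 or 3 was left out, the adjusted p of AT5G59240 was 0.107 or 0.0992 and that of AT4G30800 was 0.137 or 0.115. When AmGSTF1 replicate 1 or 3 was left out, it was 0.118 or 0.0675 for AT5G59240 and 0.148 or 0.106 for AT4G30800. Both were still called without Col0 replicate 2 or AmGSTF1 replicate 2. With no filter on dim probe sets both were lost (0.0503 and 0.0547), and AT4G30800 was lost without the intensity trend (0.0637).

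**Figure D3:**
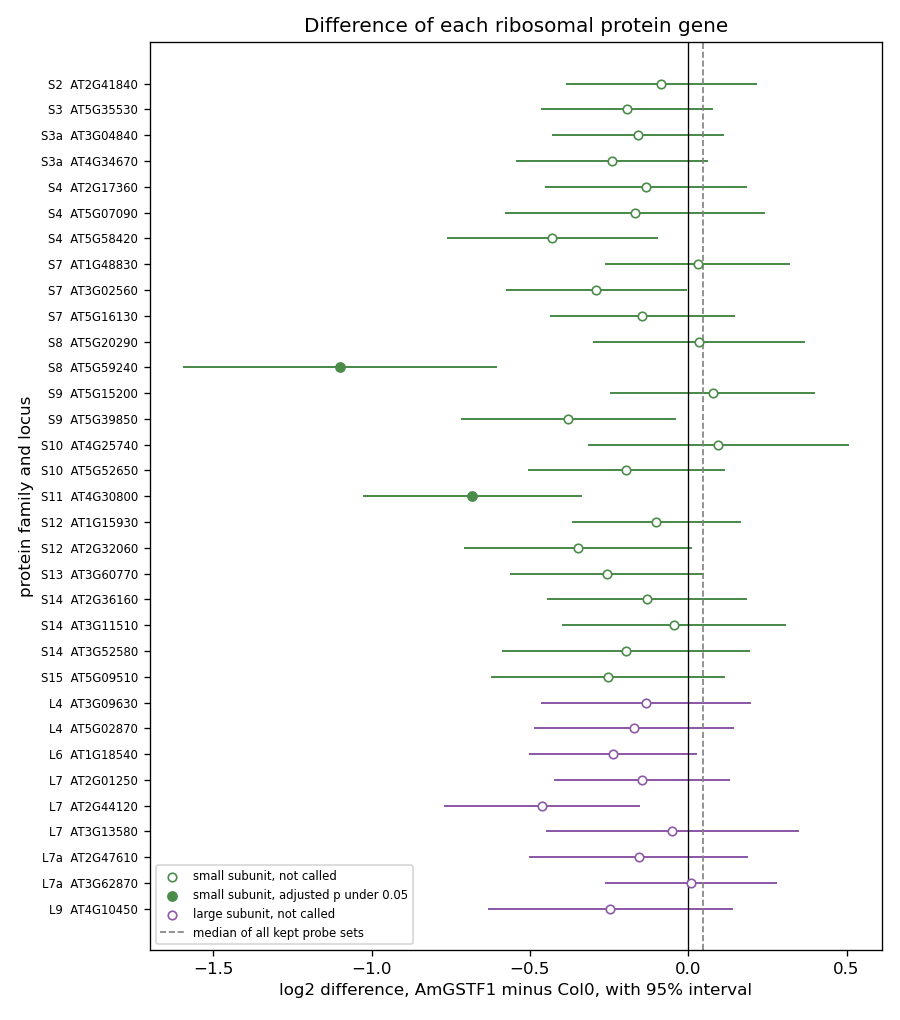
Log2 difference (AmGSTF1 minus Col0) of each measured gene with its 95% interval, small subunit in green and large subunit in purple, filled where the adjusted p was under 0.05. The dashed line is the median of all kept probe sets (0.05), and 28 of the 33 points lie left of 0.

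The small-subunit genes had a median log2 difference of -0.18 over 24 genes, with 20 lower and 4 higher values. Among the proteins that lie near the path of the mRNA, the S3 gene AT5G35530 differed by -0.19 (95% interval -0.46 to 0.08) and the S2 gene AT2G41840 by -0.08 (-0.39 to 0.22). S10, another protein of the entry side, had 2 measured genes, AT4G25740 at 0.10 (-0.32 to 0.51), the highest value of all 33, and AT5G52650 at -0.20 (-0.50 to 0.11). S15, which lies close to the decoding centre, had AT5G09510 at -0.25 (-0.62 to 0.12), and the 3 genes of S14, a protein of the platform, lay between -0.20 and -0.04. None of these passed, and in each of them the signals of the groups overlapped.

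Among the S4 genes, AT5G58420 stood out from its relatives without passing. S4 is found in eukaryotes and archaea, and 3 of its genes were measured. AT5G58420 gave signals of 4123, 3432 and 4318 on the Col0 arrays and 2741, 3386 and 2687 on the AmGSTF1 arrays. The groups did not overlap, but AmGSTF1 replicate 2 lay just under Col0 replicate 2. Its log2 difference was -0.43 (95% interval -0.76 to -0.10, adjusted p = 0.123), against -0.13 for AT2G17360 and -0.17 for AT5G07090.

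S9, which has a bacterial counterpart known for its part in the accuracy of decoding, had a brighter and a dimmer probe set, both kept for testing. AT5G39850 gave signals of 1635, 1502 and 1648 on the Col0 arrays and 1041, 1449 and 1211 on the AmGSTF1 arrays, all lower than in Col0. It differed by -0.38 (-0.72 to -0.04, adjusted p = 0.173). AT5G15200 differed by 0.08 (-0.25 to 0.40), and its signals, 10323 to 14495 on the Col0 arrays against 12220 to 13661 on the others, overlapped.

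S7 has no bacterial counterpart, and its 3 measured genes differed among themselves. AT3G02560 gave signals of 8099, 7204 and 7472 on the Col0 arrays and 5518, 6701 and 6442 on the AmGSTF1 arrays. Its groups were separate, and it differed by -0.29 (-0.58 to -0.0042, adjusted p = 0.208). AT5G16130 differed by -0.14 and AT1G48830 by 0.03, with overlapping groups.

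In S12, AT2G32060 gave signals of 4706, 4235 and 5192 on the Col0 arrays and 3038, 4397 and 3746 on the AmGSTF1 arrays. AmGSTF1 replicate 2 lay above the lowest Col0 array, so the groups overlapped. AT2G32060 differed by -0.35 (-0.71 to 0.01, adjusted p = 0.228), and the other S12 gene, AT1G15930, by -0.10. The remaining small-subunit genes were AT3G60770 of S13 at -0.26, AT3G04840 and AT4G34670 of S3a at -0.16 and -0.24, and the S8 gene AT5G20290 at 0.03. Of these, AT3G60770 and AT4G34670 had separate groups, with AmGSTF1 replicate 2 at 9834 and 7762 against lowest Col0 signals of 9908 and 7802.

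The large-subunit genes had a median log2 difference of -0.16 over 9 genes, with 8 lower values and 1 higher, and 0 passed limma's test, while 1 had an unadjusted p under 0.05. That gene was AT2G44120 of L7, a large-subunit protein with a bacterial counterpart. It gave signals of 9151, 8577 and 10257 on the Col0 arrays and 6107, 7797 and 6457 on the AmGSTF1 arrays. The groups did not overlap. AT2G44120 differed by -0.46 (95% interval -0.77 to -0.15, adjusted p = 0.0830) and passed without AmGSTF1 replicate 2 (-0.57, adjusted p = 0.0361). With any other array left out it did not pass, at an adjusted p of 0.0681 without Col0 replicate 2 and of 0.212 to 0.266 without each of the rest. The other L7 genes, AT2G01250 and AT3G13580, differed by -0.15 (-0.42 to 0.13) and -0.05 (-0.45 to 0.35).

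The L6 gene AT1G18540 gave signals of 9726, 8307 and 8762 on the Col0 arrays and 7559, 7657 and 7457 on the AmGSTF1 arrays, which were separate and, within AmGSTF1, close together. AT1G18540 differed by -0.24 (-0.50 to 0.03, adjusted p = 0.260). L4, which lines the tunnel through which the new peptide leaves, had AT3G09630 at -0.13 and AT5G02870 at -0.17. L7a, found in eukaryotes and archaea, had AT2G47610 at -0.16 and AT3G62870 at 0.01, the only higher value of this subunit. The L9 gene AT4G10450 differed by -0.25 (-0.63 to 0.14). In these 5 genes the groups overlapped.

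The subunits did not stand apart from each other. The median of the small-subunit genes minus that of the large-subunit genes was -0.02 on the log2 scale. On single arrays the same difference, taken from deviations from the Col0 mean, was -0.02, 0.07 and -0.06 in Col0 and -0.08, 0.01 and 0.00 in AmGSTF1, so the groups overlapped. Without Col0 replicate 2 the difference between the subunit medians was 0.03. Both calls were small-subunit genes, but 24 genes of that subunit and 9 of the other were measured, and no difference in calls between the subunits was tested.

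Paralogues of a family can be compared within an array, where a scaling factor common to the array cancels. Probe sets differ in brightness for reasons other than transcript level, so only the change of a ratio between groups is read here. In 11 families at least 2 members were measured, which gave 19 pairs. The log2 ratio of the pair was separate between the groups in 9 of the 19. Among all probe sets tested, 27.6% had separate groups in either direction, but no such share was computed for pairs of probe sets. Families with 3 measured members gave several pairs that share genes, so the 19 are not independent observations. Whether 9 of 19 is more than other pairs of probe sets would give was not tested. With 3 arrays a group the smallest p of the exact permutation test is 0.1 (two-sided), which those 9 pairs had, and the smallest value after Benjamini-Hochberg adjustment over the 19 was 0.211, so none could pass.

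The widest change was in S8. The log2 ratio of AT5G20290 to AT5G59240 was 4.35, 4.31 and 4.04 in Col0 and 5.51, 5.13 and 5.44 in AmGSTF1. It was 1.13 higher in AmGSTF1 (SE 0.15), with all 3 AmGSTF1 arrays above all Col0 arrays. The bright S8 probe set, AT5G20290, had 14426 ± 1881 in Col0 and 14781 ± 2040 in AmGSTF1 (SD, n = 3). Of the S8 pair, the dimmer probe set alone was called lower. The ratio rests on the same signals as that call, so it adds no support of its own.

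In S9 the log2 ratio of AT5G15200 to AT5G39850 was 2.95, 2.77 and 3.12 in Col0 and 3.53, 3.20 and 3.48 in AmGSTF1, a change of 0.46 (SE 0.15). In L7 the ratio of AT2G44120 to AT3G13580 was 1.76, 1.84 and 1.55 in Col0 and 1.24, 1.25 and 1.43 in AmGSTF1, a change of -0.41 (SE 0.10). Both L7 genes had lower values in AmGSTF1 than in Col0, and the difference was larger for the brighter probe set, AT2G44120. In S7 the ratio of AT1G48830 to AT3G02560 changed by 0.32 (SE 0.06), and in S4 that of AT2G17360 to AT5G58420 by 0.30 (SE 0.04), each with separate groups. These pairs were named for the size of their change. Their ratios reuse the signals behind the differences above and add no support of their own. The paralogues of L4 changed least among those of families with 1 pair, by 0.04 (SE 0.06), with overlapping groups.

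**Figure D4:**
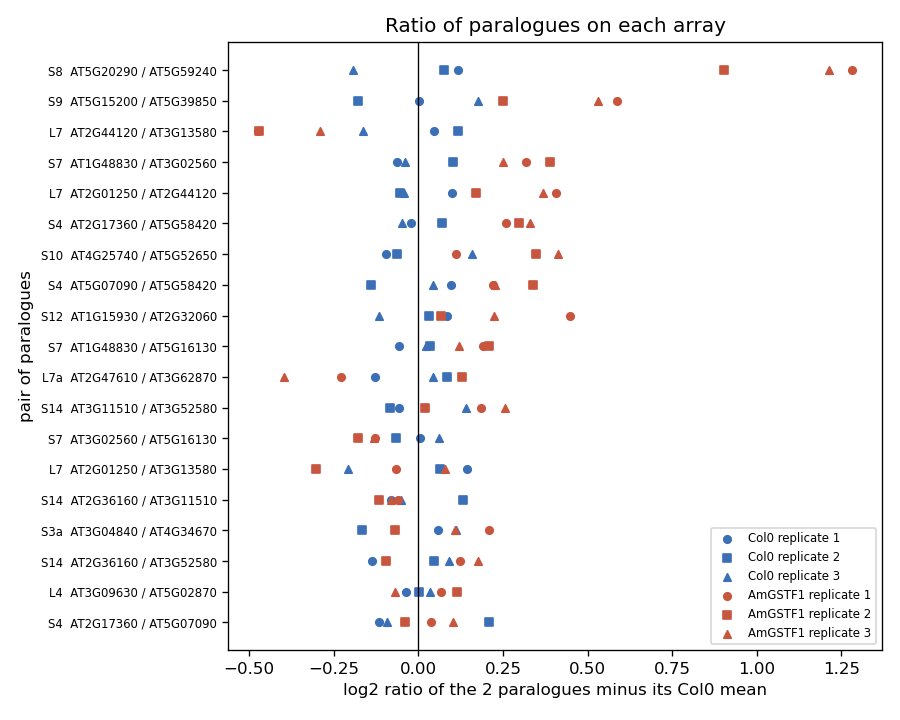
Log2 ratio of each of the 19 pairs of paralogues on each array, minus the Col0 mean of that ratio, ordered by the size of the change. The S8 pair changed by 1.13, and in the 9 pairs with separate groups all red points lie on one side of the blue ones.

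Differences were wider among dimmer probe sets. The 11 dimmest members, with mean Col0 signals of 763 to 4426, had a median log2 difference of -0.25 and held both calls, the 11 of middle brightness had -0.14 and the 11 brightest had -0.16. Across the 33 genes, mean log2 signal and log2 difference had r = 0.70 (Spearman's rho = 0.41), a description over genes that share the same 6 arrays. Without the 2 dimmest genes r was 0.35. Over the 84 other cytosolic ribosomal protein genes tested r was 0.31 (rho = 0.42), so the trend was not particular to the members. Over all 13647 probe sets r was -0.11. Whether brightness itself plays a part in the members' values was not tested.

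**Figure D5:**
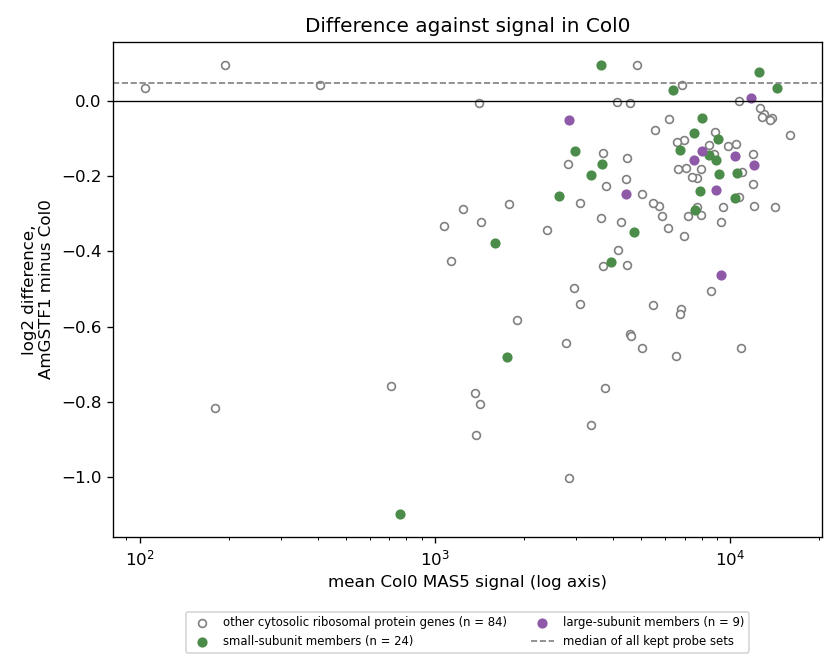
Log2 difference (AmGSTF1 minus Col0) against the mean Col0 signal (log axis) for the 24 small-subunit members, the 9 large-subunit members and 84 other cytosolic ribosomal protein genes. Most points lie below 0, and the lowest point is AT5G59240 at -1.10.

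The other cytosolic ribosomal protein genes, a list of 161 loci with further proteins of both subunits and further copies of the families above, had 92 measured genes. Of these, 84 were bright enough to be tested, and 8 were left out as dim, with signals of 0.85 to 116. Of the 84, 7 fell and 0 rose, 79 had lower values and the median was -0.28. The 7 calls are 8.33%, where 2.90% of all probe sets were called lower, and 4.90% of those within the members' range of brightness. The gap between these shares was not tested. The groups were separate and lower for 30 of the 84 (35.7%, against 13.1% of all probe sets tested and 17.1% of those within the members' range of brightness). Leaving out replicate 1, 2 or 3 of Col0 gave 0, 12 or 0 calls, and leaving out replicate 1, 2 or 3 of AmGSTF1 gave 0, 21 or 2. The median was -0.19 with quantile normalization.

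A further S2 gene, AT3G57490, showed the largest fall of that list. It gave signals of 3012, 2559 and 2955 on the Col0 arrays and 1223, 1705 and 1331 on the AmGSTF1 arrays, with a wide gap between the groups. The log2 difference was -1.004 (SE 0.16, limma adjusted p = 0.0162), against -0.08 for the S2 member AT2G41840. The log2 ratio of AT2G41840 to AT3G57490 was 1.36 to 1.45 in Col0 and 2.23 to 2.39 in AmGSTF1, a change of 0.92 (SE 0.05, exact permutation p = 0.1, the smallest possible). AT3G57490 was named for its fall, so the separate ratio adds no support of its own.

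A further L7 gene, AT1G80750, gave signals of 3434, 2974 and 3686 on the Col0 arrays and 1608, 2041 and 1895 on the AmGSTF1 arrays. The groups were separate, and AT1G80750 fell by 0.86 on the log2 scale (adjusted p = 0.0187). Its ratio to each of the 3 L7 members changed by -0.81, -0.71 and -0.40 on the log2 scale for AT3G13580, AT2G01250 and AT2G44120, with separate groups in all 3 pairs. All 3 pairs share AT1G80750, which was named for its fall, so they are not independent observations. The other falls included AT2G32220 of L27 (-0.89, adjusted p = 0.0217), AT1G15250 of L37 (-0.81, 0.0434), AT3G10610 of S17 (-0.76, 0.0225) and AT2G37190 of L12, which lies at the site where translation factors bind (-0.66, 0.0352).

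The measured genes for ribosomal proteins of the plastid lie in the nucleus and did not share the lower values. Their proteins serve the chloroplast's own bacterial-type ribosome. Of 27 listed genes 5 were measured, 0 passed limma's test, 0 had an unadjusted p under 0.05 and all 5 had higher values, from 0.10 to 0.27. AT1G64510 was the one with the smallest p, at 0.27 (-0.32 to 0.86). Both replicates 2 were the lowest of their groups for the median of these genes, at -0.38 in Col0 and -0.19 in AmGSTF1, while AmGSTF1 replicate 1 was the highest at 0.52. The difference between plastid and cytosolic genes was not tested.

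Of 21 listed cytosolic translation factors 4 were measured and 0 passed, while 2 had an unadjusted p under 0.05. AT5G19510, which encodes a subunit of the elongation factor that recharges eEF1A, had 10262 ± 715 in Col0 and 7282 ± 758 in AmGSTF1 (SD, n = 3). It differed by -0.50 (-0.78 to -0.21, adjusted p = 0.0553), with separate groups. EIF4A-2, an RNA helicase of translation initiation, differed by -0.53 (-0.86 to -0.20, adjusted p = 0.0687), also with separate groups. AT5G12110 differed by -1.05 (-2.13 to 0.02, adjusted p = 0.221) and AT1G72730 by -0.01 (-0.60 to 0.59), both with overlapping groups. RAPTOR1 and RAPTOR2, partners of the TOR kinase that links nutrient supply to ribosome production, differed by -0.11 (-0.46 to 0.24) and -0.13 (-0.58 to 0.32), with overlapping groups.

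Of the markers of other cell types, 1 of 3 for guard cells was measured, FMA, at 107 to 127 in Col0 and 60.0 to 96.3 in AmGSTF1 (log2 difference -0.55, adjusted p = 0.201). For vascular cells 1 of 4 was measured, SWEET11, at 0.08 (adjusted p = 0.868). Epidermis and flower markers had 0 measured members. The leaf marker LHCB4.2 differed by 0.48 (0.08 to 0.87, adjusted p = 0.145) and RCA by -0.17, the 2 measured of 10 leaf markers. Root markers had 2 of 4 measured, and EXPA7 was left out as dim. PYK10, highest on AmGSTF1 replicate 2 at 173, differed by 0.63 (-0.21 to 1.48, limma adjusted p = 0.350). The part of tissue composition in the values of the ribosomal protein genes was not tested.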

How the data were processed

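The authors deposited linear intensity values, and the submitters' processing notes name MAS5 and Expression Console 1.1. They were taken as log2(signal + 16), with no further normalization. The 40% of the 22746 probe sets with the lowest mean were left out. AmGSTF1 was compared with Col0 (3 arrays each) with limma 3.58.1 in R 4.3.3 (eBayes with an intensity trend, two-sided, Benjamini-Hochberg over 13647 probe sets). A call is an adjusted p under 0.05, and intervals are 95% intervals from limma. No detection calls were used, and differences of dim probe sets are understated. The number of arrays limits the precision.

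Gene names come from the annotation of the array platform, matched to RefSeq loci of TAIR10.1 (names only). All 33 member probe sets carry the suffix of a probe set designed for 1 gene, but signal from close paralogues was not measured. Members and lists were chosen with earlier results of these data known. Members given with their signal on every array are the 2 called and the next by p, up to 8 in all. The widest pair in each of the 5 families that changed most is given by the change of its ratio. From the lists of other cytosolic and of plastid ribosomal proteins up to 6 calls and the smallest p were named. All measured translation factors and TOR pathway genes were named. Alternative settings are given in the closing section.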

Additional observations from a re-analysis of the deposited data

How the results depend on the processing

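The members called lower (2) numbered 4 with array weights, 1 without the intensity trend and 0 when dim probe sets were kept. The other cytosolic ribosomal protein genes called lower (7) numbered 20, 4 and 4 in the same settings, 13 with median centring and 19 at an adjusted p under 0.1. Probe sets called higher and lower (292 and 396) numbered 814 and 827, 192 and 237, and 123 and 213 in the first 3 settings, 222 and 599 with median centring and 745 and 777 at an adjusted p under 0.1. Leaving out 1 array gave 0 to 3 members called lower and 0 called higher, 0 to 21 other genes called lower and 0 higher, and 6 to 603 probe sets higher and 5 to 566 lower. It gave subunit medians of -0.28 to -0.11 (small) and -0.25 to -0.10 (large), a difference between them of -0.05 to 0.03, and 10 to 13 pairs with separate ratios. Pairs separate more easily with fewer arrays. Leaving out both replicates 2, an alternative chosen after seeing the data, gave 10 members and 37 other genes called lower, 1087 higher and 918 lower probe sets, a large-subunit median of -0.32 and 14 separate pairs. AT2G44120, AT5G58420, AT5G39850 and AT2G32060 then passed. Other pseudocounts (1 and 64), a filter at 20%, quantile and loess normalization, robust estimates, median centring and a table without probe sets of shared sequence left the members called at 2, and 0 were called higher in all settings. Taking the dimmest probe set per locus could change no member, since each has 1. Beyond this the cause was not tested.

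With the replicate number as a block, 0 members, 0 other cytosolic ribosomal protein genes and 40 higher and 38 lower probe sets were called. AT5G59240 and AT4G30800 then had adjusted p = 0.0583 and 0.0780. This fit has fewer degrees of freedom. Over all kept probe sets, same-numbered arrays deviated from their group means with correlations of 0.146, -0.027 and -0.050, so the numbers were not taken as pairs. No such correlation was computed for single gene sets. For the median of the plastid genes, replicate 2 was the lowest in both groups. For that of the members, it was the lowest in Col0 and the highest in AmGSTF1.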
